A study of Mus musculus with 12 samples.

Results

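The genes examined were 10 members of the PGC-1 co-activator axis, chosen by symbol from the 55471 gene rows of the count table. They were the co-activators *Ppargc1b* and *Pprc1*, the DNA-binding partners *Esrra*, *Nrf1*, *Gabpa* and *Gabpb1*, and the mitochondrial transcription genes *Tfam*, *Tfb1m*, *Tfb2m* and *Polrmt*. Each symbol matched 1 row, and all 10 passed the filter on low counts. RNA was sequenced from mouse bone marrow-derived dendritic cells (DCs), grown with the cytokine GM-CSF from the marrow of female C57BL/6 mice. All cells carried a retroviral LMP vector with a human CD8 reporter and were sorted on that reporter. The hairpin RNA in the vector targeted either the luciferase of the firefly, in shControl cells, or *Ppargc1b*, in sh*Ppargc1b* cells, and the cells were then left unstimulated or were given interferon-β (IFN-β) for 6 h. These 4 groups had 3 libraries each. The study used more than 1 hairpin against *Ppargc1b*, the first of them unless it says otherwise, and the labels of these libraries do not name theirs. Nothing in the labels says that the libraries came from separate mice or cultures, so the p-values measure the spread between these libraries, which may be technical.

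PGC-1 co-activators do not bind DNA themselves. They are recruited to promoters by transcription factors such as ERRα, NRF-1 and GABP, and raise the transcription of nuclear genes of the respiratory chain and of the machinery that copies and transcribes mitochondrial DNA. Inside the organelle, the polymerase POLRMT starts transcription together with TFAM, which also packages the mitochondrial genome, and TFB2M, which melts the promoter, while TFB1M methylates the ribosomal RNA of the small mitochondrial subunit. In macrophages, PGC-1β has been linked to oxidative metabolism and to the alternatively activated state.

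The promoters of the members were read first, because several members are textbook targets of others. RefSeq windows (GRCm38.p6) from 250 bases before to 50 bases after the start site were at hand for 9 members, and there was none for *Ppargc1b*. Both strands were searched for the exact letters GCGCATGC (NRF-1), CCGGAAG (GABP), AAGGTCA (ERR) and AAGATGGCG (YY1). The stretches of 30 bases around the 7 matches are printed 5′ to 3′ on the strand of the gene, with the match in capitals. A match to the other strand appears as its reverse complement.

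*Polrmt*, NRF-1, chr10:79746696-79746725, minus strand: agagtatttctGCGCATGCtctcttgccgc
*Polrmt*, GABP, chr10:79746606-79746635, minus strand: ccctaagagcgCTTCCGGcagtcgcagaac
*Tfb2m*, NRF-1, chr1:179546245-179546274, minus strand: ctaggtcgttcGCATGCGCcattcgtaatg
*Tfam*, GABP, chr10:71238073-71238102, minus strand: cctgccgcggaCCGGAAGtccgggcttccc
*Esrra*, NRF-1, chr19:6921824-6921853, minus strand: ccccctgttttGCATGCGCaggccggcccc
*Gabpa*, GABP, chr16:84835020-84835049, plus strand: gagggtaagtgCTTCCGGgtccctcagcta
*Gabpa*, YY1, chr16:84835046-84835075, plus strand: gctaagactcCGCCATCTTtcctacacttt

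The NRF-1 letters stood in the windows of *Polrmt*, *Tfb2m* and *Esrra*, against 2.71% of all 32851 windows. The GABP letters stood in those of *Polrmt*, *Tfam* and *Gabpa*, against 8.86% of windows. The YY1 letters stood in that of *Gabpa*, against 1.40% of windows, and the ERR letters stood in no member's window and in 4.72% of all windows. *Polrmt* was the member with matches for both NRF-1 and GABP. The 2 stretches shown for *Gabpa* share 4 bases, and their matches do not overlap. A match of letters is a description of the sequence, and binding was not measured here.

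Library totals ran from 49.9 M to 77.7 M counts, and 18228 genes with 99.96% of the counts were tested. Levels are given as CPM, counts scaled to library size, after TMM correction (trimmed mean of M-values). Its factors were 0.914 to 0.941 with IFN-β and 1.07 to 1.09 without it. The labelled cell type was checked on marker lists. Dendritic-like markers summed to 4710 to 6825 CPM over all libraries, while lymphocyte-like markers reached at most 0.829 CPM and erythroid-like markers at most 0.147 CPM, and none of these markers was at 0 in every library. The dendritic-like sum was 4710 to 5555 CPM in shControl and 5500 to 6326 CPM in sh*Ppargc1b* unstimulated libraries, and 5014 to 6054 against 5975 to 6825 CPM with IFN-β. Of its 9 genes, 5 were higher and 0 lower in sh*Ppargc1b* cells in each treatment. Over all genes tested, 12.4% were higher and 11.1% lower with knockdown without IFN-β, and 11.5% and 12.7% with it. Macrophage-like markers summed to 2115 to 2243 CPM without and 2573 to 2812 CPM with the cytokine, with 2 of 7 genes lower in sh*Ppargc1b* cells in each treatment. Neutrophil-like markers summed to 36.6 to 92.3 CPM in shControl and 82.9 to 154 CPM in sh*Ppargc1b* libraries, mast cell or basophil-like markers to 7.22 to 17.0 and 12.96 to 25.7 CPM, and eosinophil-like markers to 31.6 to 67.7 and 22.3 to 45.6 CPM. Proliferation genes summed to 219 to 340 CPM in shControl and 147 to 273 CPM in sh*Ppargc1b* libraries. In each treatment 1 of 7 neutrophil-like and 2 of 6 mast cell or basophil-like genes were higher with knockdown, and 0 were lower. No eosinophil-like gene was called, of 4 tested. Of 5 proliferation genes, 1 was lower without IFN-β and 0 were called with it. The part of these shifts in the values below was not tested.

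Levels of different genes were compared per kilobase of annotated exon (GENCODE M21), and these are lengths of all exons merged, which need not match the transcripts DCs use. *Gabpa*, the DNA-binding subunit of GABP, had the highest level in every group, 9.56 to 10.98 CPM per kb. In unstimulated shControl DCs it was followed by *Ppargc1b* at 8.64 ± 0.486 CPM per kb (SD, n = 3), *Esrra* at 7.33 ± 0.168, *Pprc1* at 4.595 ± 0.546 and *Tfb2m* at 4.18 ± 0.347. The libraries of *Pprc1* and *Tfb2m* overlapped, and the other neighbours among these did not. *Tfam* followed at 3.04 ± 0.0877 CPM per kb, then *Nrf1* at 2.61 ± 0.0541 and *Gabpb1* at 2.55 ± 0.0894, which overlapped each other. *Tfb1m* and *Polrmt* were the lowest members in every group, at 0.867 to 1.43 CPM per kb, and their libraries overlapped in all 4 groups. The order changed at *Ppargc1b*, which ranked 2 in unstimulated shControl, 3 in both IFN-β groups and 4 in unstimulated sh*Ppargc1b* DCs. *Ppargc1a*, the remaining gene of the family, was left untested at 1 to 11 counts per library.

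**Figure D1:**
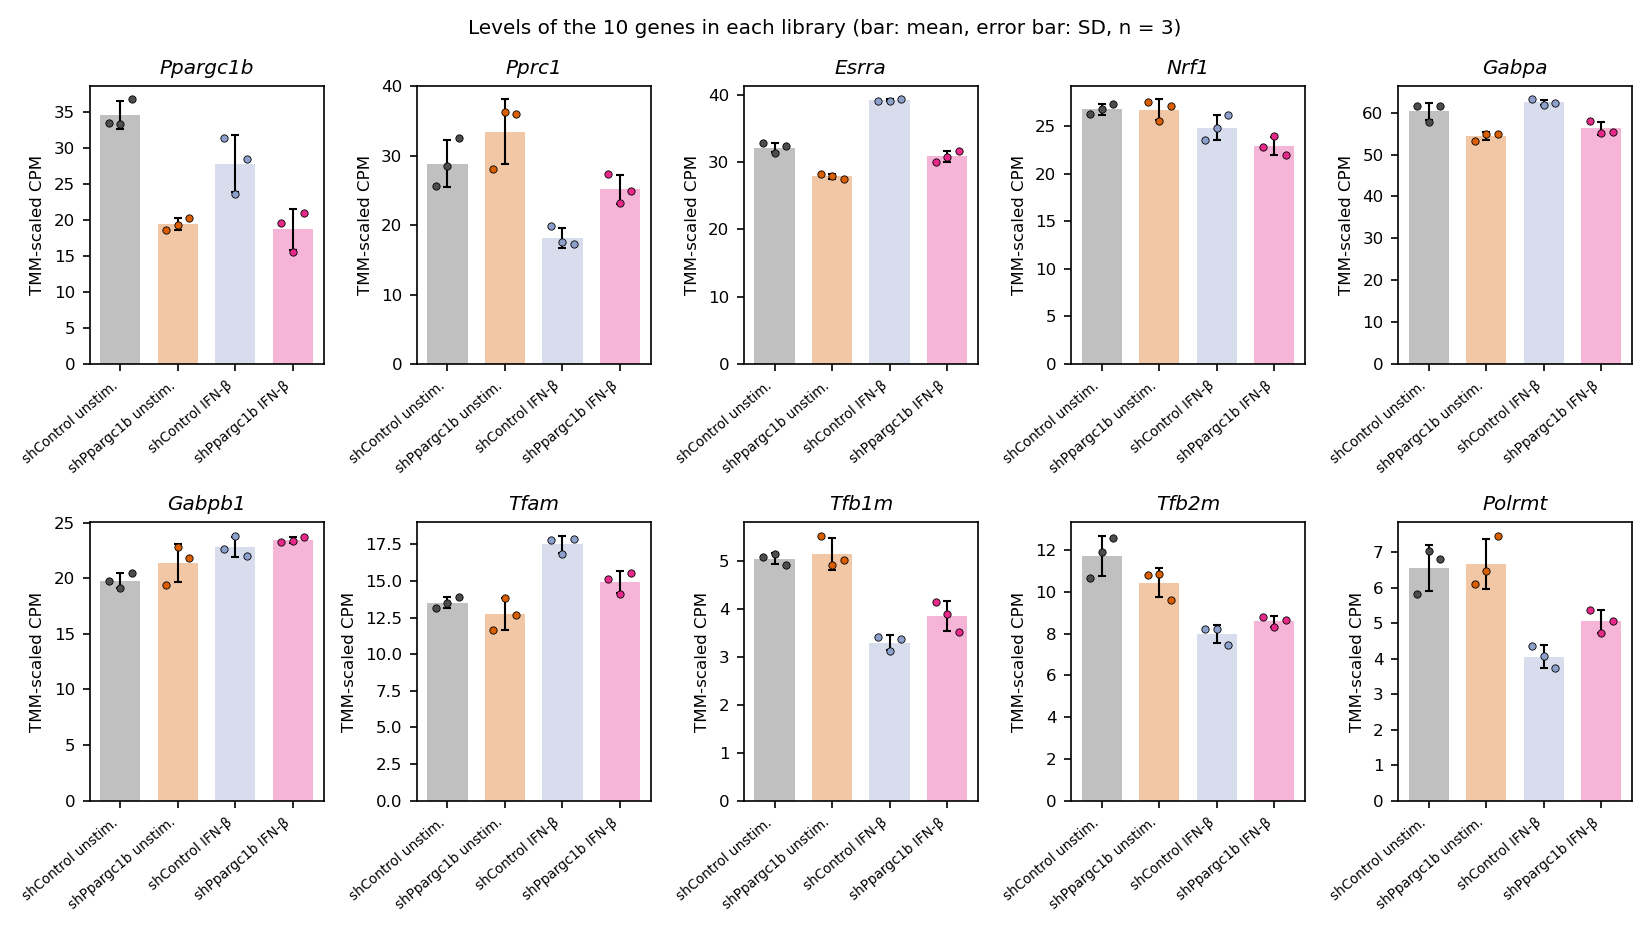
TMM-scaled CPM of the 10 genes in each of the 12 libraries (points), with the group mean (bar) and SD (error bar, n = 3); each panel has its own linear axis from 0. *Ppargc1b* points of sh*Ppargc1b* cells lie between 15.5 and 20.9 CPM, below all shControl points at 23.6 to 36.7 CPM, while those of *Pprc1* and *Polrmt* are lowest in IFN-β-treated shControl cells.

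The first question was how the hairpin changed the co-activators themselves. *Ppargc1b* (chr18:61298136-61400431, GRCm38) read 33.4, 33.3 and 36.7 CPM in unstimulated shControl and 18.6, 19.3 and 20.3 CPM in unstimulated sh*Ppargc1b* libraries. With IFN-β it read 31.4, 23.6 and 28.4 CPM in shControl and 19.6, 15.5 and 20.9 CPM in sh*Ppargc1b* libraries. The groups did not overlap in either treatment, and the sh*Ppargc1b* mean was 56.3% of shControl without and 67.2% with IFN-β. An exact permutation test (two-sided) gave p = 0.1 each time, and no smaller value is possible with 3 libraries on each side. In these bulk samples, fewer expressing cells and less RNA per cell cannot be told apart. The log2 fold change was -0.83 ± 0.10 in unstimulated cells (SE, edgeR adjusted p = 3.2e-05) and -0.57 ± 0.11 in IFN-β-treated cells (adjusted p = 9.5e-04).

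*Pprc1* (chr19:46044886-46072915), which encodes the growth-regulated relative PRC, lay on the other side. It read 25.7, 28.5 and 32.5 CPM in unstimulated shControl and 28.1, 36.3 and 36.0 CPM in unstimulated sh*Ppargc1b* libraries, and these groups overlapped. After IFN-β it read 19.9, 17.5 and 17.2 CPM in shControl against 27.3, 23.2 and 24.9 CPM in sh*Ppargc1b* libraries, with no overlap. *Pprc1* rose in IFN-β-treated sh*Ppargc1b* cells by 0.47 ± 0.11 (log2, SE, edgeR adjusted p = 0.00440), a level 138% of shControl. The difference in unstimulated cells was 0.21 ± 0.10 and missed the threshold (adjusted p = 0.155), but it passed without sh*Ppargc1b* unstimulated replicate 1, at 0.33 (adjusted p = 0.0205), and with no filter on low counts, where every gene with a count was tested (adjusted p = 0.0101).

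The make-up of PGC-1 family RNA follows from these levels. A fall in the share of *Ppargc1b*, the hairpin's own target, is part of the design, and *Pprc1* passed the threshold in the main fit with IFN-β only. Per kilobase, *Ppargc1b* held 67.1%, 64.7% and 63.9% of the summed RNA of the 3 family genes in unstimulated shControl libraries, and 51.0%, 45.5% and 46.9% in unstimulated sh*Ppargc1b* libraries. With IFN-β its shares were 71.3%, 67.8% and 72.1% in shControl and 52.9%, 51.2% and 56.9% in sh*Ppargc1b* libraries. The ratio of *Ppargc1b* to *Pprc1* was 1.89 ± 0.140 and 2.40 ± 0.251 in shControl cells without and with IFN-β, and 0.923 ± 0.107 and 1.17 ± 0.139 in sh*Ppargc1b* cells (SD, n = 3). Thus *Pprc1* RNA was about as abundant as *Ppargc1b* RNA in knockdown cells, and their per-kilobase levels overlapped in both treatments there. *Ppargc1a* added 0.0297% to 0.290%. These shares describe RNA, and protein was not measured.

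**Figure D2:**
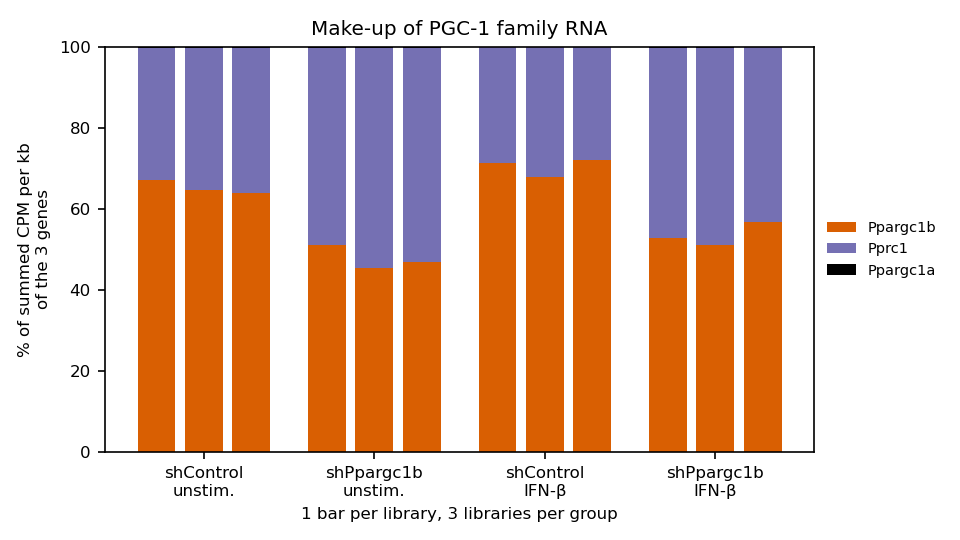
Share of each PGC-1 family gene in their summed CPM per kb (vertical axis, %), with 1 bar per library and 3 libraries per group; *Ppargc1a* is too small to see, at 0.290% or less. *Ppargc1b* makes up 63.9% to 72.1% in shControl libraries and 45.5% to 56.9% in sh*Ppargc1b* libraries.

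Of the 4 DNA-binding partners, *Esrra* and *Gabpa* were lower in sh*Ppargc1b* cells in both treatments, and *Nrf1* and *Gabpb1* missed the threshold in both. *Esrra* (chr19:6910977-6921813) encodes the orphan nuclear receptor ERRα, through which PGC-1 proteins act on oxidative genes. It read 32.8, 31.3 and 32.3 CPM in unstimulated shControl and 28.3, 27.9 and 27.4 CPM in unstimulated sh*Ppargc1b* libraries. The IFN-β-treated libraries read 39.0, 39.1 and 39.3 against 30.002, 30.8 and 31.7 CPM. The groups were separate in each treatment, and *Esrra* fell by 0.21 ± 0.04 on the log2 scale in unstimulated cells (SE, edgeR adjusted p = 0.00241) and by 0.34 ± 0.04 in IFN-β-treated cells (adjusted p = 3.3e-05). With no filter on low counts the unstimulated call was lost (adjusted p = 0.0568).

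*Gabpa* (chr16:84834925-84863779) read 61.5, 57.9 and 61.5 CPM in unstimulated shControl and 53.2, 55.0 and 54.9 CPM in unstimulated sh*Ppargc1b* libraries. In IFN-β-treated cells it read 63.2, 61.9 and 62.2 against 58.1, 55.2 and 55.4 CPM. These groups were separate too, but the shift was small, -0.15 ± 0.04 in both treatments (log2, SE, edgeR adjusted p = 0.0139 without and 0.0129 with IFN-β). Dropping the filter on low counts ended both calls (adjusted p = 0.200 and 0.132). The unstimulated call was also lost without shControl unstimulated replicate 1 (adjusted p = 0.0575) or 3 (adjusted p = 0.0558). Of its exon bases, 397 (6.98%) are shared with *Atp5j* on the opposite strand, and the strand setting of the counting is not given in the sources used here.

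*Nrf1* (chr6:30047988-30153458), the gene of the activator NRF-1, read 26.2, 26.8 and 27.4 CPM in unstimulated shControl and 27.6, 25.5 and 27.2 CPM in unstimulated sh*Ppargc1b* libraries. The libraries overlapped, with a difference of -0.00 ± 0.06 (log2, SE, edgeR adjusted p = 0.984). With IFN-β it read 23.6, 24.8 and 26.2 against 22.9, 23.9 and 22.0 CPM, which overlapped as well (-0.12 ± 0.06, adjusted p = 0.155). *Gabpb1* (chr2:126627442-126676337) encodes a GABP β subunit, the kind that carries the activation domain. It read 19.7, 19.1 and 20.5 against 19.4, 22.8 and 21.9 CPM without, and 22.7, 23.8 and 22.0 against 23.3, 23.4 and 23.8 CPM with IFN-β. Its differences of 0.11 ± 0.06 and 0.04 ± 0.06 missed the threshold (adjusted p = 0.226 and 0.701), although leaving out sh*Ppargc1b* unstimulated replicate 1 brought the former to 0.0455. So *Gabpa* and *Gabpb1* did not share a call under knockdown, and the difference between them was not tested. *Gabpb2*, which encodes another GABP β subunit, was called lower with knockdown in both treatments, as *Gabpa* was. Its mean was 108.7 CPM in shControl and 93.7 CPM in sh*Ppargc1b* cells without IFN-β, and 102.7 against 87.3 CPM with it.

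None of the 4 mitochondrial transcription genes passed the threshold in unstimulated knockdown cells by edgeR, with 0 at an unadjusted p under 0.05 and 0 by DESeq2. *Tfam* (chr10:71225464-71238280) read 13.1, 13.5 and 13.9 CPM in shControl and 11.7, 13.8 and 12.7 CPM in sh*Ppargc1b* unstimulated libraries, which overlapped (log2 fold change -0.09 ± 0.07, adjusted p = 0.444). After IFN-β it read 17.8, 16.8 and 17.9 against 15.1, 14.1 and 15.6 CPM, with no overlap. *Tfam* fell there by 0.23 ± 0.07 (log2, SE, edgeR adjusted p = 0.0263). This call was fragile: it was lost without any of 6 single libraries, namely shControl unstimulated replicate 2 (adjusted p = 0.0546) or 3 (0.0505), sh*Ppargc1b* unstimulated replicate 3 (0.0536), shControl IFN-β replicate 1 (0.0618) or 3 (0.0744), and sh*Ppargc1b* IFN-β replicate 2 (0.0792). It was also lost with no filter (0.0985).

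The other 3 genes of this group had means above those of shControl in IFN-β-treated knockdown cells, and none passed the threshold. *Polrmt* (chr10:79736123-79746581) read 5.83, 7.03 and 6.83 against 6.10, 6.48 and 7.47 CPM without IFN-β, which overlapped (0.03 ± 0.11, adjusted p = 0.890). The IFN-β-treated libraries read 4.36, 4.08 and 3.74 CPM in shControl and 5.37, 4.71 and 5.08 CPM in sh*Ppargc1b* libraries, and the groups were separate. The difference of 0.32 ± 0.11 just missed the threshold (SE, edgeR adjusted p = 0.0515), and over the alternatives its adjusted p ran from 0.0325 to 0.205. It passed with library totals (0.0431), with the runs of library codes as blocks (0.0475), with only the groups compared in the fit (0.0480) and without any single unstimulated library (0.0325 to 0.0475).

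*Tfb1m* (chr17:3519256-3557781) read 5.09, 5.14 and 4.93 against 5.53, 4.92 and 5.03 CPM without IFN-β, which overlapped (0.03 ± 0.10, adjusted p = 0.885). In IFN-β-treated cells it read 3.41, 3.12 and 3.38 against 4.14, 3.89 and 3.53 CPM, which did not overlap, and the difference of 0.22 ± 0.10 missed the threshold (adjusted p = 0.137). *Tfb1m* shares 142 exon bases with *Tiam2* on the opposite strand, which had 8176 counts over all libraries against 3071 for *Tfb1m*. *Tfb2m* (chr1:179528055-179546267) read 10.7, 11.9 and 12.6 against 10.8, 10.9 and 9.64 CPM without IFN-β, and 8.25, 8.22 and 7.48 against 8.80, 8.31 and 8.67 CPM with it. Its differences were -0.17 ± 0.08 (adjusted p = 0.159) and 0.11 ± 0.08 (adjusted p = 0.401), on opposite sides of 0, and its libraries overlapped without IFN-β and not with it.

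Over the 10 members, 3 were called in unstimulated knockdown cells, 0 higher and 3 lower, against 23.6% of all genes tested (12.4% higher and 11.1% lower). The libraries of 3 members did not overlap there, against 36.8% of all genes, so these counts lie near the background. With IFN-β, 5 members were called, 1 higher and 4 lower, against 24.2% of all genes (11.5% higher and 12.7% lower). The libraries of 8 members did not overlap, 4 higher and 4 lower, against 38.7% of all genes. *Ppargc1b*, the hairpin's own target, is among the members called and not overlapping in both treatments. The median log2 fold change of the members was -0.04 in both treatments, against -0.00 and -0.01 over all genes. Their median absolute change was 0.13 without IFN-β (all genes 0.17) and 0.23 with it (all genes 0.18).

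**Figure D3:**
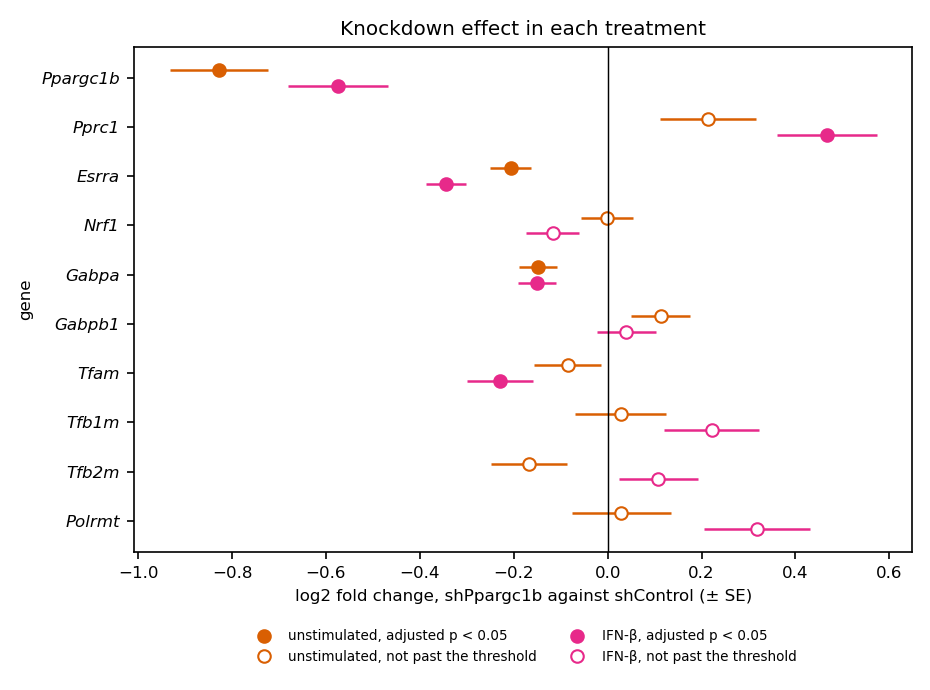
Log2 fold change of sh*Ppargc1b* against shControl (horizontal axis, ± SE) for each gene in unstimulated and IFN-β-treated cells; filled points have an edgeR adjusted p under 0.05 and open points do not. *Ppargc1b*, *Esrra* and *Gabpa* are filled and left of 0 in both treatments, and *Pprc1* is filled at 0.47 with IFN-β.

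The next question was how IFN-β acted on the same genes. In shControl cells, 8 members were called, 3 higher (*Tfam*, *Esrra* and *Gabpb1*) and 5 lower (*Tfb2m*, *Pprc1*, *Polrmt*, *Tfb1m* and *Ppargc1b*). In sh*Ppargc1b* cells 7 were called, 2 higher (*Esrra* and *Tfam*) and 5 lower (*Tfb1m*, *Pprc1*, *Nrf1*, *Polrmt* and *Tfb2m*). The background was 48.2% of all genes in shControl (23.7% higher and 24.6% lower) and 42.6% in sh*Ppargc1b* cells (21.4% higher and 21.2% lower). The libraries did not overlap for all 10 members in shControl cells, 4 higher and 6 lower, and for 9 members in sh*Ppargc1b* cells, 4 higher and 5 lower, against 56.7% and 50.1% of all genes. The IFN-β and knockdown contrasts share libraries. Unstimulated shControl cells are the reference of the unstimulated knockdown and of the IFN-β effect in shControl cells. IFN-β-treated shControl cells are the reference of the knockdown with IFN-β and the treated side of that IFN-β effect. A gene that is low in those treated libraries thus reads as lower with IFN-β and as higher with knockdown.

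These directions depend on the scaling. With library totals in place of TMM, the median log2 fold change of all genes moved from -0.03 to -0.27 in shControl and from -0.02 to -0.22 in sh*Ppargc1b* cells. The calls over all genes moved from 4312 higher and 4481 lower to 2598 and 8294 in shControl, and from 3895 and 3865 to 2340 and 7551 in sh*Ppargc1b* cells. Under library totals no member was called higher, and 7 and 6 were called lower. The falls below were called under both scalings, and the rises are therefore relative to the TMM reference.

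The members that fell most in both cell populations were *Polrmt*, *Tfb1m*, *Tfb2m* and *Pprc1*. From the values above, *Polrmt* fell by 0.70 ± 0.11 on the log2 scale in shControl cells (SE, edgeR adjusted p = 7.5e-05), to 61.7% of its unstimulated level. In sh*Ppargc1b* cells it fell by 0.41 ± 0.11 (adjusted p = 0.00636), to 75.4%. *Tfb1m* fell by 0.61 ± 0.10 (adjusted p = 1.0e-04) and 0.42 ± 0.10 (adjusted p = 0.00269), and *Tfb2m* by 0.56 ± 0.08 (adjusted p = 4.0e-05) and 0.28 ± 0.08 (adjusted p = 0.0120). *Pprc1* fell by 0.67 ± 0.11 in shControl (adjusted p = 7.3e-05), against 0.42 ± 0.10 with the knockdown (adjusted p = 0.00407). In each of these 4 genes the unstimulated libraries lay above all IFN-β-treated libraries of the same hairpin. The call of *Tfb2m* in sh*Ppargc1b* cells was lost without sh*Ppargc1b* unstimulated replicate 2 (adjusted p = 0.0527).

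*Tfam* went the other way from its partners in the same transcription complex. Its IFN-β libraries lay above its unstimulated libraries in both cell populations, a rise of 0.37 ± 0.07 in shControl (log2, SE, edgeR adjusted p = 3.8e-04) and of 0.23 ± 0.07 in sh*Ppargc1b* cells (adjusted p = 0.0161). Under library totals these were 0.13 (adjusted p = 0.122) and 0.03 (adjusted p = 0.789). The call in sh*Ppargc1b* cells was also lost with no filter (0.0887), without sh*Ppargc1b* unstimulated replicate 1 (0.0726) and without sh*Ppargc1b* IFN-β replicate 3 (0.0663).

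Among the DNA-binding partners, *Esrra* rose by 0.28 ± 0.04 in shControl (log2, SE, edgeR adjusted p = 4.8e-05), and in sh*Ppargc1b* cells the rise was 0.15 ± 0.04 (adjusted p = 0.0125). Under library totals it stood at 0.04 (adjusted p = 0.387) and -0.06 (adjusted p = 0.284). In sh*Ppargc1b* cells the call was lost without sh*Ppargc1b* IFN-β replicate 3 (0.0548) and with no filter (0.255). *Gabpb1* rose by 0.21 ± 0.06 in shControl cells (adjusted p = 0.0126), and its difference in sh*Ppargc1b* cells was 0.13 ± 0.06 (adjusted p = 0.0996). The rise was -0.03 under library totals and was lost without shControl unstimulated replicate 2 (0.0752), while the difference in sh*Ppargc1b* cells passed without sh*Ppargc1b* unstimulated replicate 2 (0.0375).

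*Nrf1* fell in sh*Ppargc1b* cells by 0.22 ± 0.06 (log2, SE, edgeR adjusted p = 0.00449), and its difference in shControl cells was -0.11 ± 0.06 (adjusted p = 0.131), which passed under library totals at -0.35 (adjusted p = 5.8e-05). *Gabpa* differed by 0.05 ± 0.04 in both populations (adjusted p = 0.332 and 0.369) and turned to -0.19 (adjusted p = 0.00107) and -0.15 (adjusted p = 0.00561) under library totals. *Ppargc1b* itself fell by 0.31 ± 0.10 in shControl cells (adjusted p = 0.0210), with 31.4 CPM as the highest treated and 33.3 CPM as the lowest untreated library. That call was lost without shControl IFN-β replicate 2 (-0.19, adjusted p = 0.157) or 3 (-0.31, 0.0545), or shControl unstimulated replicate 3 (-0.28, 0.0654). In sh*Ppargc1b* cells its treated and untreated libraries overlapped (-0.06 ± 0.11, adjusted p = 0.705).

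**Figure D4:**
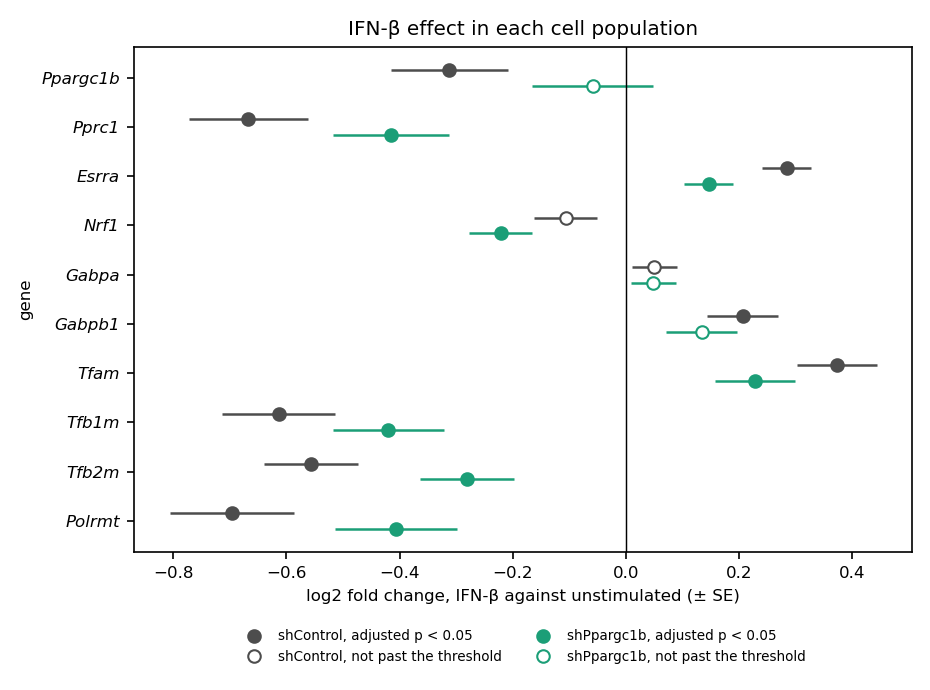
Log2 fold change of IFN-β against unstimulated cells (horizontal axis, ± SE, TMM scaling) for each gene in shControl and sh*Ppargc1b* cells; filled points have an edgeR adjusted p under 0.05 and open points do not. *Pprc1*, *Tfb1m*, *Tfb2m* and *Polrmt* lie at -0.28 or below in both populations and *Tfam* at 0.23 and 0.37; the rises of *Esrra*, *Gabpb1* and *Tfam* are not called under library totals.

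Whether the knockdown effect differed between treatments was tested by the interaction, which subtracts the unstimulated from the IFN-β-treated knockdown effect. No member passed in edgeR, against 0.73% of all genes, with 2 members at an unadjusted p under 0.05 and 0 called by DESeq2. Those 2 were *Tfb2m* at 0.28 ± 0.12 (log2, SE, edgeR adjusted p = 0.414) and *Esrra* at -0.14 ± 0.06 (adjusted p = 0.436). The estimate was above 0 for both co-activators and for *Tfb1m*, *Tfb2m* and *Polrmt*, from 0.19 to 0.29, and below 0 for *Tfam* at -0.14 and for the 4 DNA-binding partners. The members' median was 0.10, against -0.00 over all genes. A call of a member in 1 treatment or 1 population and not in the other is therefore not shown to be a difference between them.

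The wider pathway was described with 4 lists. They were chosen with earlier results of these data known, so their counts beside the background are a description and not an independent test. Among textbook targets of NRF-1, GABP or ERRα, nuclear genes of respiration, haem synthesis and protein import, 10 of 14 tested genes were lower and 1 was higher in unstimulated knockdown cells, against 11.1% and 12.4% of all genes. With IFN-β, 8 were lower and 2 were higher, against 12.7% and 11.5%. The list's median log2 fold change was -0.25 and -0.21, against -0.00 and -0.01 over all genes. *Sdhd* and *Sdhb*, subunits of succinate dehydrogenase, fell by 0.49 ± 0.04 (log2, SE, edgeR adjusted p = 6.0e-07) and by 0.42 ± 0.06 (adjusted p = 4.2e-05) in unstimulated cells, and by 0.42 ± 0.04 and 0.35 ± 0.06 with IFN-β. *Atp5b*, the catalytic β subunit of ATP synthase, fell by 0.51 ± 0.05 and 0.52 ± 0.05, and *Cox4i1*, a cytochrome c oxidase subunit, by 0.35 ± 0.04 in both treatments. The member higher in both treatments was *Alas1*, the first enzyme of haem synthesis. IFN-β raised 2 and lowered 5 of the 14 in shControl (all genes 48.2% called), and raised 3 and lowered 6 in sh*Ppargc1b* cells (all genes 42.6%). Under library totals it raised 1 and lowered 11 in each. *Cycs*, cytochrome c, rose by 1.10 ± 0.06 and 1.14 ± 0.06, while *Idh3a*, an isocitrate dehydrogenase subunit, fell by 1.12 ± 0.08 and 0.86 ± 0.08. *Pdk4* was left untested at 0 to 6 counts per library.

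Of 31 genes that maintain mitochondrial DNA or process mitochondrial RNA, 1 was higher and 2 were lower in unstimulated knockdown cells, against 23.6% of all genes called. In IFN-β-treated knockdown cells 4 were higher and 3 lower, near the 24.2% of all genes. IFN-β raised 4 and lowered 17 in each cell population, against 48.2% of all genes called in shControl and 42.6% in sh*Ppargc1b* cells, with a list median of -0.24 in shControl and -0.21 in sh*Ppargc1b* cells. Under library totals 2 were raised and 22 lowered in each. *Lrpprc* and *Slirp*, whose products form a complex that stabilises mitochondrial mRNAs, moved in opposite directions. In shControl cells *Lrpprc* went from 61.9 to 33.2 CPM (log2 fold change -0.90 ± 0.05, edgeR adjusted p = 9.0e-10) and *Slirp* from 20.4 to 37.8 CPM (0.89 ± 0.06, adjusted p = 7.6e-09). In sh*Ppargc1b* cells their changes were -0.67 ± 0.05 and 0.78 ± 0.06. *Pnpt1*, a mitochondrial RNA-degrading enzyme, rose by 1.64 ± 0.09 in shControl and by 1.42 ± 0.09 in sh*Ppargc1b* cells, and *Prorp*, the nuclease subunit of mitochondrial RNase P, fell by 0.65 ± 0.09 in shControl. In unstimulated knockdown cells the called genes were *Fastkd3* at 0.26 ± 0.08 and *Lrpprc* and *Mgme1* at -0.18 ± 0.05 and -0.37 ± 0.11. Each of these calls was lost without single libraries: *Fastkd3* without shControl unstimulated replicate 1 (adjusted p = 0.119) or sh*Ppargc1b* unstimulated replicate 2 (0.0722) or 3 (0.0862), *Lrpprc* without shControl unstimulated replicate 2 (0.0559) or 3 (0.0642) or the first sh*Ppargc1b* unstimulated library (0.0822), and *Mgme1* without shControl unstimulated replicate 1 (0.0714) or 3 (0.0842) or sh*Ppargc1b* unstimulated replicate 1 (0.0681). *Lrpprc* was also lost with no filter (0.0786).

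The list of other co-activators, receptors and modulators held 27 genes, of which *Ppargc1a*, *Esrrb*, *Esrrg* and *Ppara* had at most 11 counts in any library and were not tested. *Esrra* was thus the only gene of the ERR family with counts enough to test. Of the 23 tested, 2 were higher and 8 lower in unstimulated knockdown cells (all genes 23.6% called), and 3 higher and 5 lower in IFN-β-treated knockdown cells (all genes 24.2%). *Rxra* and *Pparg*, which encode partners in a nuclear receptor heterodimer, fell by 0.61 ± 0.06 (log2, SE, edgeR adjusted p = 2.7e-06) and 0.52 ± 0.09 (adjusted p = 6.4e-04) in unstimulated cells. With IFN-β, *Rxra* was again called lower with knockdown and *Pparg* was not called. *Ncoa1*, a steroid receptor co-activator, fell by 0.40 ± 0.04 in unstimulated cells (adjusted p = 3.1e-06) and by 0.51 ± 0.04 in IFN-β-treated cells (adjusted p = 3.9e-07). In IFN-β-treated cells the knockdown raised *Myc*, a growth regulator, by 0.87 ± 0.12 (adjusted p = 9.2e-05), and *Mybbp1a*, a nucleolar protein that can repress PGC-1α, by 0.51 ± 0.09 (adjusted p = 9.4e-04), while IFN-β itself lowered both genes in both populations. *Myc* and *Mybbp1a* were also the genes called higher in unstimulated knockdown cells. IFN-β raised 8 and lowered 9 of the 23 in shControl (all genes 48.2% called), and raised 7 and lowered 7 in sh*Ppargc1b* cells (all genes 42.6%). With library totals these were 2 and 15, and 3 and 14. *Pparg* fell by 1.31 ± 0.10 and 0.94 ± 0.10, and *Ncoa1* rose by 0.66 ± 0.04 and 0.55 ± 0.04.

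The RNA that this machinery makes was read from the mitochondrially encoded genes, of which 9 of 15 were tested. The other 6, *mt-Nd3*, *mt-Nd4l*, *mt-Co2*, *mt-Co3*, *mt-Atp6* and *mt-Atp8*, had at most 14 counts in any library, and *mt-Rnr1* and *mt-Rnr2* are ribosomal RNAs, which the library kit depletes. By contrast, *mt-Co1* stood at 14072 CPM in unstimulated shControl cells. Counts are of unique alignments, which can undercount near-identical genes, so those low counts need not mean little RNA, and this was not tested. IFN-β lowered 5 of the 9 and raised 0 in shControl, against 24.6% of all genes lower, and lowered 2 and raised 0 in sh*Ppargc1b* cells, against 21.2%. Over the alternatives the number lowered in sh*Ppargc1b* cells ran from 1 to 6. The call of *mt-Nd5* there (-0.22 ± 0.08, edgeR adjusted p = 0.0446) was lost in 10 alternatives, with the highest adjusted p without sh*Ppargc1b* IFN-β replicate 2 (-0.10, adjusted p = 0.220). Calls were gained by *mt-Nd1* (-0.19, adjusted p = 0.0654) in 6 and by *mt-Cytb* (-0.17, adjusted p = 0.0716) in 5. *mt-Nd2* fell from 1909 to 1154 CPM in shControl (log2 fold change -0.73 ± 0.08, edgeR adjusted p = 1.0e-06) and from 1725 to 1412 CPM in sh*Ppargc1b* cells (-0.29 ± 0.08, adjusted p = 0.00610). *mt-Cytb*, *mt-Nd5* and *mt-Nd4* fell by 0.60 ± 0.07, 0.60 ± 0.08 and 0.52 ± 0.07 in shControl. In IFN-β-treated cells, 4 of the 9 were higher and 1 was lower with knockdown, against 11.5% and 12.7% of all genes. *mt-Nd2*, *mt-Nd1* and *mt-Cytb* were higher by 0.29 ± 0.08, 0.29 ± 0.08 and 0.26 ± 0.07 (adjusted p = 0.0109, 0.0112 and 0.0167), and the libraries of *mt-Nd2* and *mt-Nd1* overlapped between the groups. All 3 calls were lost without sh*Ppargc1b* IFN-β replicate 1 (0.0803, 0.0715 and 0.103), without sh*Ppargc1b* IFN-β replicate 3 (0.058, 0.0773 and 0.0751) and without shControl IFN-β replicate 2 (0.0557, 0.0594 and 0.0625), and those of *mt-Nd2* and *mt-Cytb* without shControl IFN-β replicate 1 (0.053 and 0.0788). *mt-Nd6*, the protein-coding gene of the light strand, was lower with knockdown, at -0.26 ± 0.07, in both treatments (adjusted p = 0.00839 without and 0.00978 with IFN-β), and was the gene called in unstimulated knockdown cells in the main fit. Over the alternatives the number lower in unstimulated knockdown cells ran from 1 to 7, with 0 higher. With no filter, *mt-Cytb* and *mt-Nd4* were called lower there (edgeR adjusted p = 0.00549 and 0.0365). The interaction called 0 of the 9 in edgeR, with 5 at an unadjusted p under 0.05, and this depended on the fit. It called 4 higher by DESeq2 and 4 in edgeR with the runs of library codes as blocks, and 5 each with no filter and without sh*Ppargc1b* IFN-β replicate 2. In the other alternatives it called 0. *mt-Cytb* stood at 0.43 ± 0.10 (edgeR adjusted p = 0.0706), with an adjusted p of 0.019 under the blocks and 0.0049 by DESeq2. *mt-Nd2*, *mt-Nd4* and *mt-Nd5* had adjusted p = 0.0799, 0.0832 and 0.175 in edgeR and 0.025, 0.0232 and 0.0174 under the blocks. In the other 3 lists the interaction called 0 genes in edgeR and in DESeq2, with 4 co-activators, 3 DNA and RNA genes and 1 target at an unadjusted p under 0.05. With no filter, edgeR called *Myc* at 0.47 (adjusted p = 3.5e-04).

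Finally, for each member the tested genes with the most similar level across the 12 libraries were found by Pearson correlation of log2 CPM among 8743 genes with a mean log2 CPM of at least 3. The libraries fall into 4 groups, so a high value mostly says that a gene shares the pattern of group means. *Pprc1* was most like *Nolc1* (r = 0.99), *Ftsj3* (0.99) and *Wdr75* (0.99). These 3 genes encode proteins of the nucleolus that act in ribosome production. *Ppargc1b* was most like *Sash3* (0.98), *Ndufa10* (0.97), which encodes a complex I subunit, and *Mgll* (0.96). *Polrmt* was most like *Zfp282*, *Mettl2* and *Hsf1* (0.98, 0.98 and 0.97), *Tfb1m* like *Klhdc2*, *Ica1* and *Galnt9* (0.99, 0.98 and 0.98), and *Tfb2m* like *Gm45532*, *Grk6* and *Dip2c* (0.96, 0.95 and 0.95). *Tfam* was most like *Gapvd1*, *Tmem183a* and *Msh3* (0.97, 0.96 and 0.95), and *Esrra* like *Birc6*, *Stim2* and *Mapk6* (0.99, 0.99 and 0.98). The genes most like *Gabpa* included *Hps5* and *Gm44005* (0.97 and 0.96). *Gabpb1* was most like *Rars*, *Dcaf13* and *Ccnyl1* (0.96, 0.94 and 0.94), and *Nrf1* like *Fbxo21*, *Nfs1* and *Dnajc18* (0.92, 0.91 and 0.91). No gene named here was shared between members.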

How the data were processed

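Per the labels, 12 libraries fell into 4 groups of 3; replicates were numbered in record order and never paired. The authors depleted ribosomal RNA, trimmed reads with Trim Galore 0.6.0 and mapped them to mm10 (GRCm38) with STAR 2.7.8a (submitters' notes; the study's methods name another version). The deposited values were raw counts per GENCODE gene (unique alignments, not normalized), so near-identical genes can be undercounted. Counts were analysed with edgeR 4.0.16 (R 4.3.3): filterByExpr (minimum count 10, minimum total 15), TMM, 1 mean per group, quasi-likelihood F-tests over 18228 genes, Benjamini-Hochberg adjustment, threshold 0.05. Code was tested on simulated data. Alternatives were other scalings, no filter, DESeq2 1.42.0, fewer groups, a block per run of library codes (1 library of each group a run; the labels do not say what a run is), and leaving out each library. Exon lengths came from GENCODE M21. Members and gene lists were chosen with earlier results of these data known. Named were all members, *Ppargc1a*, untested list genes and the 3 most similar genes. Tested list genes were named from the 4 of each list with the lowest p in a contrast, and not all of those are named. *Alas1* and *Gabpb2* were added after their values were seen. A similar gene of *Gabpa* is not reported here.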

Additional observations from a re-analysis of the deposited data

How the results depend on the processing

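The number of members called ranged from 2 to 5 for the knockdown in unstimulated cells when single libraries were left out (3 with all libraries; 5 without sh*Ppargc1b* unstimulated replicate 1), and was 3 in place of 5 for the knockdown with IFN-β with no filter on low counts. Among values called in either fit, directions turned under library totals only, for *Gabpa* (-0.19 in shControl and -0.15 in sh*Ppargc1b*), *Gabpb1* in shControl (-0.034) and *Esrra* in sh*Ppargc1b* cells (-0.057), all for IFN-β. Another 16 values turned with no call on either side, from log2 fold changes of at most 0.13 in size, among them *Polrmt*, *Tfb1m* and *Nrf1* for the knockdown in unstimulated cells and *Ppargc1b* for IFN-β in sh*Ppargc1b* cells (0.066 without sh*Ppargc1b* IFN-β replicate 2). The interaction count over all genes was 133 (11 higher and 122 lower), against 84 with library totals (17 and 67), 525 with no filter, 425 with the block for runs and 454 by DESeq2, and 36 to 271 without single libraries (36 without shControl unstimulated replicate 3, 271 without sh*Ppargc1b* IFN-β replicate 2); the cause was not tested, and 0 members were called in each. *Ppargc1b* stayed at 55.0% to 58.2% of shControl (unstimulated) and 62.5% to 72.9% (IFN-β) without single libraries. Of the members' 890 values under alternatives, 831 kept their direction and side of the threshold, 27 lost and 16 gained a call. The labels share no replicate numbers. Libraries of the same run of codes deviated together weakly (r 0.0276 to 0.146, 5 of 18 pairs over 0.1), against -0.154 to 0.0565 between runs. In 35 of 36 comparisons the highest value lay within the run. The labels do not say what a run is, and the main fit left the runs out, which is a limit. With the block, calls over all genes went from 4295 to 5041 for the knockdown without IFN-β and from 4414 to 5180 with it. The block changed the call of 1 member, *Polrmt* for the knockdown with IFN-β (adjusted p = 0.0475), and raised the interaction calls of mitochondrially encoded genes from 0 to 4.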
